A study of Rattus norvegicus with 12 samples.

Results

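The transcripts described here were those whose level in whole lung was lower in every library from rats kept at simulated high altitude than in every library from rats kept at laboratory altitude. A transcript was taken where its highest value among the 9 chamber libraries lay below its lowest value among the 3 normoxic libraries. The mean of log2(FPKM + 1) also had to be at least 0.5 higher in normoxia than in the chamber. FPKM is the number of sequenced fragments scaled to transcript length and library size. The rule was met by 251 of the 15435 transcripts that reached 1 FPKM in at least 3 of the 12 libraries, or 1.63%. The table listed 17254 transcripts in all. The members were thus chosen by their measured difference between normoxia and the chamber, which is given as a description and carries no test.

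Adult rats of the strain labelled SD were assigned at random to 4 exposures of 2 weeks, with 3 lung libraries for each. The normoxic group (N) lived at 400 m in air with 21% oxygen. The hypoxic group (H) lived around the clock in a hypobaric chamber at 405 mmHg, a simulated altitude of 5000 m. The C3 group lived in that chamber with 42% oxygen to breathe for 3 h each day without interruption. In the I3 group that daily amount of 42% oxygen was given intermittently. H, C3 and I3 thus shared the chamber, and no group received the added oxygen at laboratory altitude. Nothing in the labels ties a library to 1 rat, so p-values reflect only the spread between libraries, and this spread may be technical.

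Lack of oxygen acts on the lung in a manner unlike its action on other organs. Small pulmonary arteries constrict where oxygen falls, and over days to weeks their walls thicken and the pressure in the pulmonary circulation rises, the condition known as pulmonary hypertension. In all cells, low oxygen stabilizes the hypoxia-inducible factors, which are transcription activators, while lowered RNA can follow from repressors, from altered RNA decay or from a changed mixture of cells. In bulk lung, fewer cells of a type and less RNA per cell cannot be told apart. The table carries rat Ensembl transcript identifiers that are not paired with gene names in the sources used here. The members are therefore described by identifier and value, no gene role is given, and the lung label was not checked against marker genes.

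Libraries of the same exposure differed from each other. Over all transcripts tested, N replicates 1 to 3 lay at -10.1, -60.3 and -35.6 on the first principal component. Every chamber library was at 3.38 or more, so this component also set N apart from the chamber. Along the second component H replicate 3 (-36.4) and I3 replicate 3 (-39.4) stood apart. The median level of all tested transcripts, on the log2(FPKM + 1) scale, lay between 2.98 and 3.06 in every library. The part of these libraries in the results was not tested, and the values without them are given beside the counts.

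Together the 251 transcripts made up 1.77 ± 0.10% of the summed FPKM of the tested transcripts in N (SD, n = 3), and 0.98 ± 0.06% of it in H, with 0.90 ± 0.06% for C3 and 1.04 ± 0.02% for I3. Their mean levels in N lay between 1.23 and 402 FPKM, while the highest of all tested transcripts was 6352 FPKM. The median member stood at 10.5 FPKM in N, against 7.47 FPKM for all tested transcripts. Mean levels in N of less than 5 FPKM were found for 58 members (23.1%, against 38.9% of all tested transcripts), and levels of 100 FPKM or more for 14 (5.58%, against 3.31%). Because the size condition is set on log2(FPKM + 1), transcripts with low levels meet it less easily. The filter at 1 FPKM was passed by 237 members on their chamber libraries alone and by 14 only with the help of N, where the rule has them high. In the plot of chamber level against normoxic level the members run along the lower edge of the cloud, up to the level of 402 FPKM in N, rather than forming a separate group.

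**Figure D1:**
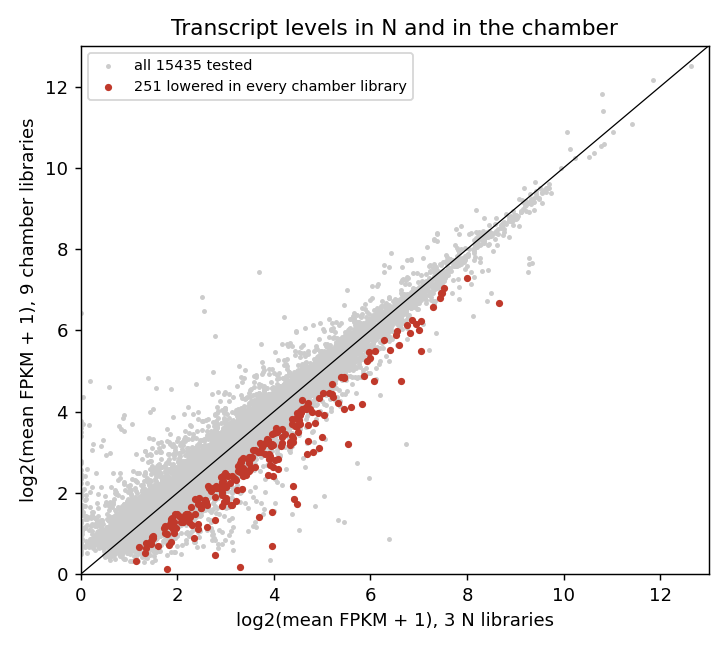
Mean level in the 9 chamber libraries (y axis) against mean level in the 3 N libraries (x axis), both as log2(mean FPKM + 1), for all 15435 tested transcripts (grey) and the 251 members (red). The line marks equal levels, and all 251 members lie below it.

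Most members were present at a lower level in the chamber rather than being switched off. The median member stood in the chamber at 51.9% of its mean level in N, with quartiles of 43.7% and 61.9%. The median log2 deficit (N minus chamber) was 0.77, with quartiles of 0.62 and 1.00 and a range of 0.50 to 2.82. A deficit of 1 or more was seen in 63 members and one of 2 or more in 13. Only 13 members stood below 25% of their level in N, and 4 below 10%. No member was listed at 0 in all 9 chamber libraries, and 16 were listed at 0 in at least 1 of them. A listed 0 may be a failed estimate, since the values are estimated abundances.

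Membership at the edges of the rule turned on small differences. The gap between the lowest N value and the highest chamber value had a median of 0.14 on the log2(FPKM + 1) scale. It was below 0.1 in 95 members and reached 0.5 in 15 and 1 in 3. Among transcripts with no overlap, the members nearest the size threshold had deficits of 0.504, 0.505 and 0.505, and the nearest transcripts left out had 0.499, 0.496 and 0.493. Among transcripts with a large enough deficit, the closest member had a lowest N value of 1.693 FPKM against a highest chamber value of 1.693 FPKM, equal at this rounding. The closest transcript left out had 4.01 FPKM on both sides. A further 937 transcripts had a deficit of 0.5 or more with some overlap, and transcripts with a deficit of this size made up 7.70% of those tested. Whatever the size of the deficit, 450 transcripts (2.92%) had all chamber values below all N values.

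The normoxic libraries did not weigh equally in the set. N replicate 2 held the highest N value for 157 members, and N replicate 1 held the lowest for 133. With N replicate 2 left out, 301 transcripts met the rule, among them 200 of the 251. The deficit of 44 members was then below 0.5. Leaving out N replicate 1 relaxed the overlap condition most and gave 588 transcripts, of which 236 were members, and leaving out N replicate 3 gave 445, of which 238 were members. Without H replicate 3 and I3 replicate 3 the count was 317, and 244 members were among them.

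The members with the largest deficits showed how the normoxic libraries could disagree. ENSRNOT00000026473 had the largest deficit, 2.82. It stood at 32.8, 6.09 and 5.05 FPKM in N, at 0.34, 0.22 and 0.33 FPKM in H, at 0.74, 0.55 and 0.80 FPKM in C3, and at 1.23, 0.56 and 0.93 FPKM in I3. N replicate 1 was far above the other N libraries, yet the lowest N value was 4.11 times the highest chamber value. ENSRNOT00000045492 followed with a deficit of 2.60. It was at 1.37, 5.46 and 19.7 FPKM in N, was listed at 0 in all 3 H libraries, and reached at most 0.49 FPKM in C3 and 0.24 FPKM in I3. Its N values thus differed among themselves by more than the lowest of them differed from the chamber. Both of these members reached 1 FPKM in fewer than 3 chamber libraries. They thus passed the filter only with the help of N, where the rule has them high.

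The widest separation relative to the level belonged to ENSRNOT00000057190, which was chosen after its values were seen. It stood at 6.42, 6.26 and 4.91 FPKM in N. In the chamber it was at 0.31, 0.72 and 0.61 FPKM in H, at 0.79, 0 and 0.48 FPKM in C3, and at 0.24, 0 and 0.27 FPKM in I3. The lowest N library was 6.24 times the highest chamber library, the largest such ratio among the members, and the N libraries lay close together. All 9 chamber values were below 1 FPKM, so this transcript passed the filter only through its N libraries, and the rule could not be applied to it without one of them.

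The 2 most abundant members were separated from the chamber by narrow margins. ENSRNOT00000018820 was the most abundant member in N only through N replicate 1, with 961 FPKM against 130 and 114 FPKM in the other N libraries. Its chamber libraries ranged from 89.5 to 113 FPKM, so the lowest N value exceeded the highest chamber value by a factor of 1.01. Its deficit was 1.27 with all libraries and 0.28 without N replicate 1. ENSRNOT00000003297, the next most abundant, was at 301, 236 and 232 FPKM in N. It was at 90.3, 146 and 131 FPKM in H, at 146, 191 and 105 FPKM in C3, and at 215, 220 and 153 FPKM in I3. Here the 3 N libraries were similar, H was at 47.7% of the mean level of N, C3 at 57.5% and I3 at 76.4%.

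Some members had a few chamber libraries at or near 0, which enlarged their deficit. In 18 members (7.17%), the libraries of at least 1 chamber group differed by 2 or more on the log2(FPKM + 1) scale, against 8.62% of all tested transcripts. ENSRNOT00000055013, chosen after its values were seen, was at 23.3, 24.6 and 26.4 FPKM in N. In H it was at 0.007, 0 and 15.3 FPKM, in C3 at 10.7, 9.003 and 0.39 FPKM, and in I3 at 9.98, 0.20 and 15.0 FPKM. Each chamber exposure thus had libraries at about 9 to 15 FPKM, still below the N values, and libraries near 0. ENSRNOT00000023456, also chosen after its values were seen, was at 22.5 to 23.7 FPKM in N. It was at 19.2 to 22.4 FPKM in 8 chamber libraries and was listed at 0 in C3 replicate 3. Without that library its deficit was 0.14 instead of 0.64. StringTie divides reads among the transcripts of 1 gene by estimation, and the part of this division in such values was not tested. Leaving out 1 chamber library, the one whose loss lowered the deficit most, brought 32 members below 0.5 and 1 below 0.25. With medians in place of means in both N and the chamber, 187 of the 251 members had a deficit of 0.5 or more. That count thus depends on the N libraries as well.

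The exposures were then ranked within the set. The rule treats the 9 chamber libraries alike, so it names no order of H, C3 and I3. The chamber values it uses are nonetheless those that are then ranked. The rule also removes any transcript that returned to normoxic values in even 1 chamber library, and so limits how far the chamber groups can differ. The median member stood at 54.3% of its level in N in H, at 47.5% in C3 and at 54.9% in I3. The median deficit in C3 was 0.89, against 0.74 in H and 0.73 in I3. A deficit of 1 or more was reached by 62 members in H, by 92 in C3 and by 58 in I3, and 37 members reached it in each of the 3 groups. The deficit was at least 0.5 in every chamber group for 169 members. It was below 0.25 for 4 members in H, for 0 in C3 and for 4 in I3. C3 thus stood lowest over the set, and the medians of H and I3 were close.

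The values by library showed the same order with some overlap. As the median over members of the log2 level minus the transcript's mean over all libraries, N replicates 1 to 3 stood at 0.46, 0.72 and 0.54. The H libraries stood at -0.09, -0.15 and -0.18, those of C3 at -0.23, -0.40 and -0.23, and those of I3 at -0.22, -0.06 and -0.06. All 3 C3 libraries were below all H libraries and all I3 libraries, but C3 replicate 1 and I3 replicate 1 differed by less than 0.01. C3 replicate 2 was the lowest, and it held the lowest chamber value for 74 members, more than any other library. The highest chamber value fell in a C3 library for 37 members, in an H library for 110 and in an I3 library for 104.

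**Figure D2:**
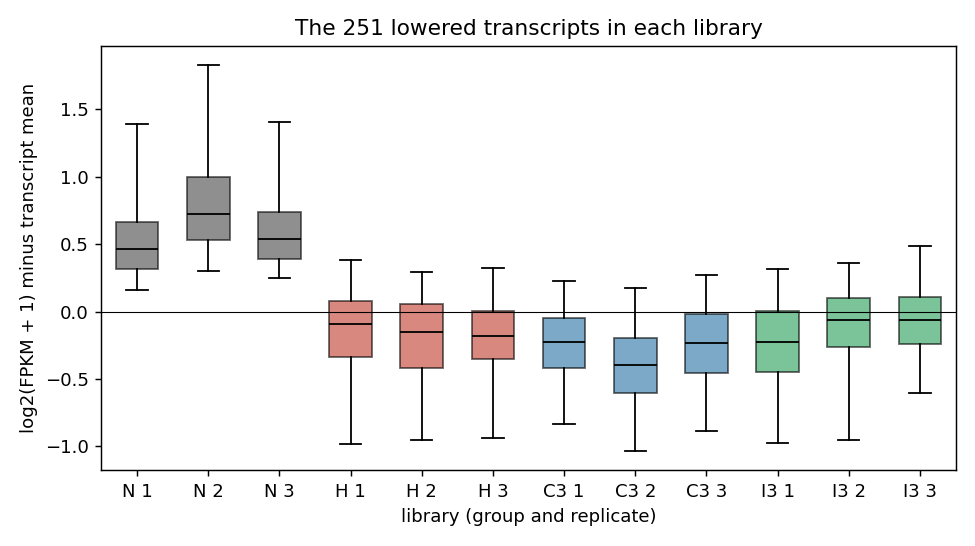
Distribution over the 251 members of log2(FPKM + 1) minus the transcript's mean over 12 libraries (y axis) in each library (x axis). Boxes span the quartiles with the median as a line and whiskers reach the 5th and 95th percentiles, and the C3 boxes, with medians of -0.23, -0.40 and -0.23, are the lowest.

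C3 had the lowest mean of the chamber groups for 143 members (57.0%), H for 56 (22.3%) and I3 for 52 (20.7%). Over all tested transcripts C3 was also lowest most often, at 38.7%, against 30.7% for H and 30.6% for I3. The highest mean was that of H for 110 members, of I3 for 107 and of C3 for 34, the last being 13.5% against 31.9% of all tested transcripts. The orders with C3 below H below I3 (71 members) and C3 below I3 below H (72 members) were about equally common. Without C3 replicate 2, C3 was lowest for 118 of 246 members, or 48.0%, against 37.3% of all tested transcripts. In the 937 transcripts with a deficit of 0.5 or more and some overlap, C3 was lowest for 38.1%, close to its share over the whole table. Among the 164 transcripts raised in every chamber library by the mirrored rule, H was the highest of the chamber groups for 75 (45.7%), C3 for 61 (37.2%) and I3 for 28, and I3 was the lowest for 87 (53.0%).

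**Figure D3:**
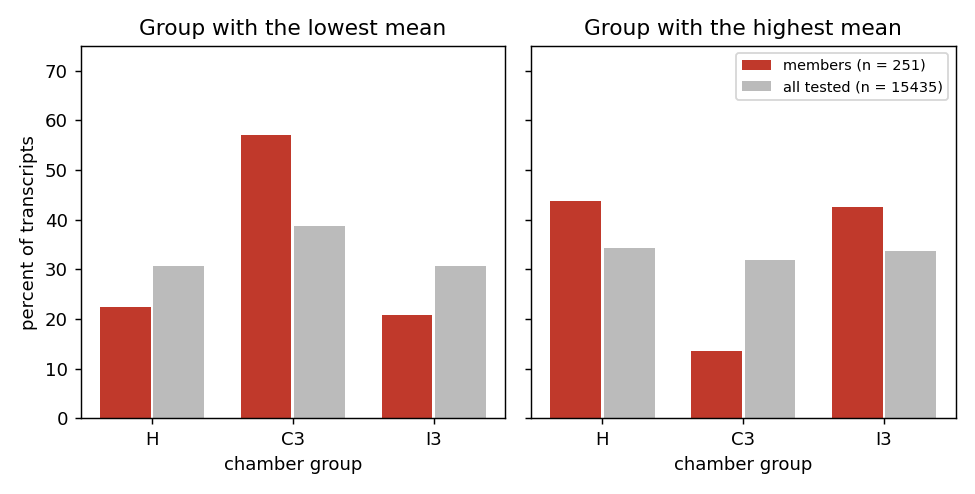
Share of transcripts (y axis, percent) for which each chamber group (x axis) had the lowest mean (left) or the highest mean (right) of log2(FPKM + 1), for the 251 members (red) and all 15435 tested transcripts (grey). C3 was lowest for 57.0% of the members and highest for 13.5%.

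Among the 63 members with a deficit of 1 or more, C3 was lowest for 28 (44.4%, against 38.7% of all tested transcripts). H was lowest for 21 (33.3%, against 30.7%) and I3 for 14 (22.2%, against 30.6%). The share for C3 was thus nearer to that of the whole table than it was over all 251 members. In these members the median of C3 minus H was -0.12 and that of I3 minus C3 was 0.18, against -0.14 and 0.14 over all 251. The median of I3 minus H was 0.13, against 0.01.

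The question whether continuous reoxygenation altered these transcripts relative to hypoxia alone was put to limma, fitted on all 15435 transcripts with Benjamini-Hochberg adjustment. In this and the later comparisons, the spread of a transcript came from all 12 libraries, including the N libraries that the rule used. The rule thus bears on the p-values of members, and shares below a given p are descriptions only. The median over members of C3 minus H was -0.14 on the log2 scale, with quartiles of -0.30 and 0.03, against -0.02 for all tested transcripts. C3 was lower than H in 181 members (72.1%, against 53.4% of all tested) and higher in 69. No member passed an adjusted p of 0.05 (0 of 251, against 0.0130% of all tested transcripts). At an unadjusted p below 0.05, 25 members were lower in C3 (9.96%, against 3.67% of all tested) and 6 were higher (2.39%, against 3.19%). All C3 libraries lay below all H libraries for 39 members (15.5%, against 8.66%), and above them for 8 (3.19%, against 6.95%). The median was -0.07 without C3 replicate 2, against -0.01 for all tested transcripts in those libraries.

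The 2 members with the smallest p in each direction of that comparison did not pass. One of them, ENSRNOT00000089935, is described with the I3 libraries. ENSRNOT00000085651 was at 6.03, 8.25 and 5.49 FPKM in N, at 4.26, 3.90 and 4.32 FPKM in H, at 1.98, 1.72 and 2.48 FPKM in C3, and at 2.15, 3.11 and 3.45 FPKM in I3. The C3 libraries were all below the H libraries, with a log2 difference of -0.76 ± 0.18 (SE) and an adjusted p of 0.681 in limma. ENSRNOT00000007949 was at 14.8, 13.7 and 13.4 FPKM in H and at 10.05, 6.32 and 8.59 FPKM in C3, a log2 difference of -0.71 ± 0.18 with the same adjusted p. It was at 11.6, 14.8 and 13.3 FPKM in I3 and at 21.0 to 31.3 FPKM in N, so C3 was the lowest group and I3 lay with H. In the other direction, ENSRNOT00000071573 was at 7.70, 7.53 and 12.3 FPKM in H and at 23.7, 23.4 and 22.1 FPKM in C3. The log2 difference was 1.27 ± 0.30, the largest excess of C3 over H among the members (adjusted p = 0.681 in limma, not passed). Its N libraries were at 64.0, 38.5 and 63.8 FPKM and its I3 libraries at 12.3, 16.8 and 28.9 FPKM.

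Intermittent reoxygenation was set against hypoxia alone in the same fit. The median over members of I3 minus H was 0.01, with quartiles of -0.17 and 0.22, against -0.00068 for all tested transcripts. I3 was higher in 127 members (50.6%, against 49.8% of all tested) and lower in 124. At an unadjusted p below 0.05, 15 members were higher in I3 (5.98%, against 2.34% of all tested) and 5 lower (1.99%, against 2.66%). The libraries of these groups did not overlap for 21 members higher in I3 (8.37%, against 4.69%) and for 7 lower (2.79%, against 5.16%). One member, or 0.398% against 0.0324% of all tested transcripts, passed the adjusted threshold.

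That member was ENSRNOT00000089935. It was at 15.4, 15.3 and 16.1 FPKM in N and at 6.89, 5.77 and 5.29 FPKM in H. In C3 it was at 10.7, 11.6 and 11.1 FPKM, and in I3 at 13.4, 15.0 and 13.3 FPKM. No groups overlapped, and the order was H, C3, I3, N, with H at 38.4% of the mean level in N, C3 at 71.7% and I3 at 89.2%. The place of N above the chamber was set by the rule, and the lowest N value was 1.02 times the highest chamber value. I3 rose above H by 1.10 ± 0.10 on the log2 scale (SE, adjusted p = 0.00438 in limma). C3 was above H by 0.81 ± 0.10 and did not pass (adjusted p = 0.071 in limma), and I3 was above C3 by 0.29 ± 0.10 (adjusted p = 0.704 in limma). It was also the 1 member called over the 3 chamber groups together in the moderated F test of limma (adjusted p = 0.00929), in which 0.0389% of all tested transcripts were called. That test called 0 members without H replicate 2, without H replicate 3, and without both H replicate 3 and I3 replicate 3. At an unadjusted p below 0.05 it found 40 members (15.9%, against 6.31% of all tested). The rule bears on the spread in this fit, so these shares are not on equal terms. The call against H was lost in a fit of H and I3 alone (adjusted p = 0.0789 in limma). After median ratio scaling it was still called against H, but its I3 and N libraries overlapped and it left the set.

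The other members nearest to a call between I3 and H did not pass. ENSRNOT00000082064 was at 2.89, 3.21 and 2.23 FPKM in H, at 2.45, 3.05 and 2.64 FPKM in C3 and at 4.76, 4.27 and 4.99 FPKM in I3, against 5.35, 6.18 and 6.48 FPKM in N. I3 lay apart from H and C3, by 0.59 ± 0.13 and 0.61 ± 0.13 on the log2 scale, and its adjusted p was 0.545 against H and 0.638 against C3 in limma. The lower members by smallest p were ENSRNOT00000012632 and ENSRNOT00000018453, with I3 minus H of -0.38 ± 0.14 and -0.43 ± 0.17. Neither passed, with adjusted p of 0.978 for the first and 0.987 for the second in limma. In the first, N was at 9.55 to 10.7 FPKM, H at 5.50 to 8.11 FPKM, C3 at 4.58 to 5.08 FPKM and I3 at 4.63 to 5.98 FPKM. In the second, the range of I3, 2.06 to 4.03 FPKM, overlapped that of H, 3.79 to 4.40 FPKM. C3 was at 2.80 to 3.17 FPKM and N at 5.04 to 6.16 FPKM.

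The schedules were compared directly at equal daily time of reoxygenation. The median over members of I3 minus C3 was 0.14, with quartiles of -0.03 and 0.32, against 0.02 for all tested transcripts. I3 was higher in 179 members (71.3%, against 53.3% of all tested) and lower in 72. No member passed the adjusted threshold in limma (0 of 251, against 0.00648% of all tested transcripts). At an unadjusted p below 0.05, 35 members were higher in I3 (13.9%, against 3.40%) and 2 were lower (0.797%, against 3.25%). All I3 libraries lay above all C3 libraries for 46 members (18.3%, against 8.16%) and below them for 4 (1.59%, against 7.64%). The median was 0.09 without C3 replicate 2.

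**Figure D4:**
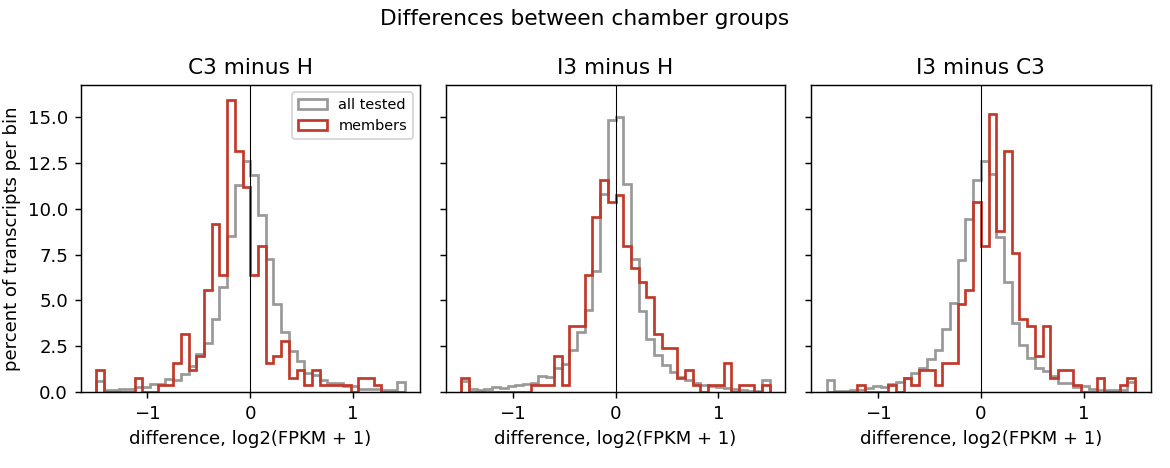
Differences between the group means of log2(FPKM + 1) (x axis, values beyond 1.5 in either direction drawn in the end bins) as percent of transcripts per bin (y axis), for members (red) and all tested transcripts (grey). The members are displaced to the left for C3 minus H (median -0.14) and to the right for I3 minus C3 (median 0.14), and are near 0 for I3 minus H (median 0.01).

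Single transcripts showed both directions between the schedules without passing the test. ENSRNOT00000011086 was at 18.5, 21.4 and 22.1 FPKM in I3 and at 11.5, 6.98 and 14.9 FPKM in C3, a log2 difference of 0.89 ± 0.22 (adjusted p = 0.682 in limma). Its H libraries, at 13.5, 13.4 and 10.1 FPKM, lay with C3, and its N libraries were at 28.5 to 30.1 FPKM. ENSRNOT00000042890 was listed at 0 in the 3 I3 libraries and in 2 H libraries, was at 0.74, 0.44 and 0.59 FPKM in C3 and at 1.04 to 1.34 FPKM in N. All its chamber values were below 1 FPKM, so it passed the filter only through N, and its differences between chamber groups are between values near 0. ENSRNOT00000037712 was at 0.60, 0.47 and 0.53 FPKM in I3, at 0.44, 0.44 and 0.58 FPKM in H and at 1.10, 0.86 and 1.51 FPKM in C3, against 2.15 to 3.33 FPKM in N. Fewer than 3 of the chamber values of ENSRNOT00000037712 reached 1 FPKM, so it too passed the filter only with the help of N. In both of these low members, C3 was the chamber group nearest to N, opposite to the set as a whole. Their log2 differences of I3 minus C3 were -0.66 ± 0.19 and -0.48 ± 0.17, and neither passed in limma (adjusted p = 0.688 and 0.704).

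**Figure D5:**
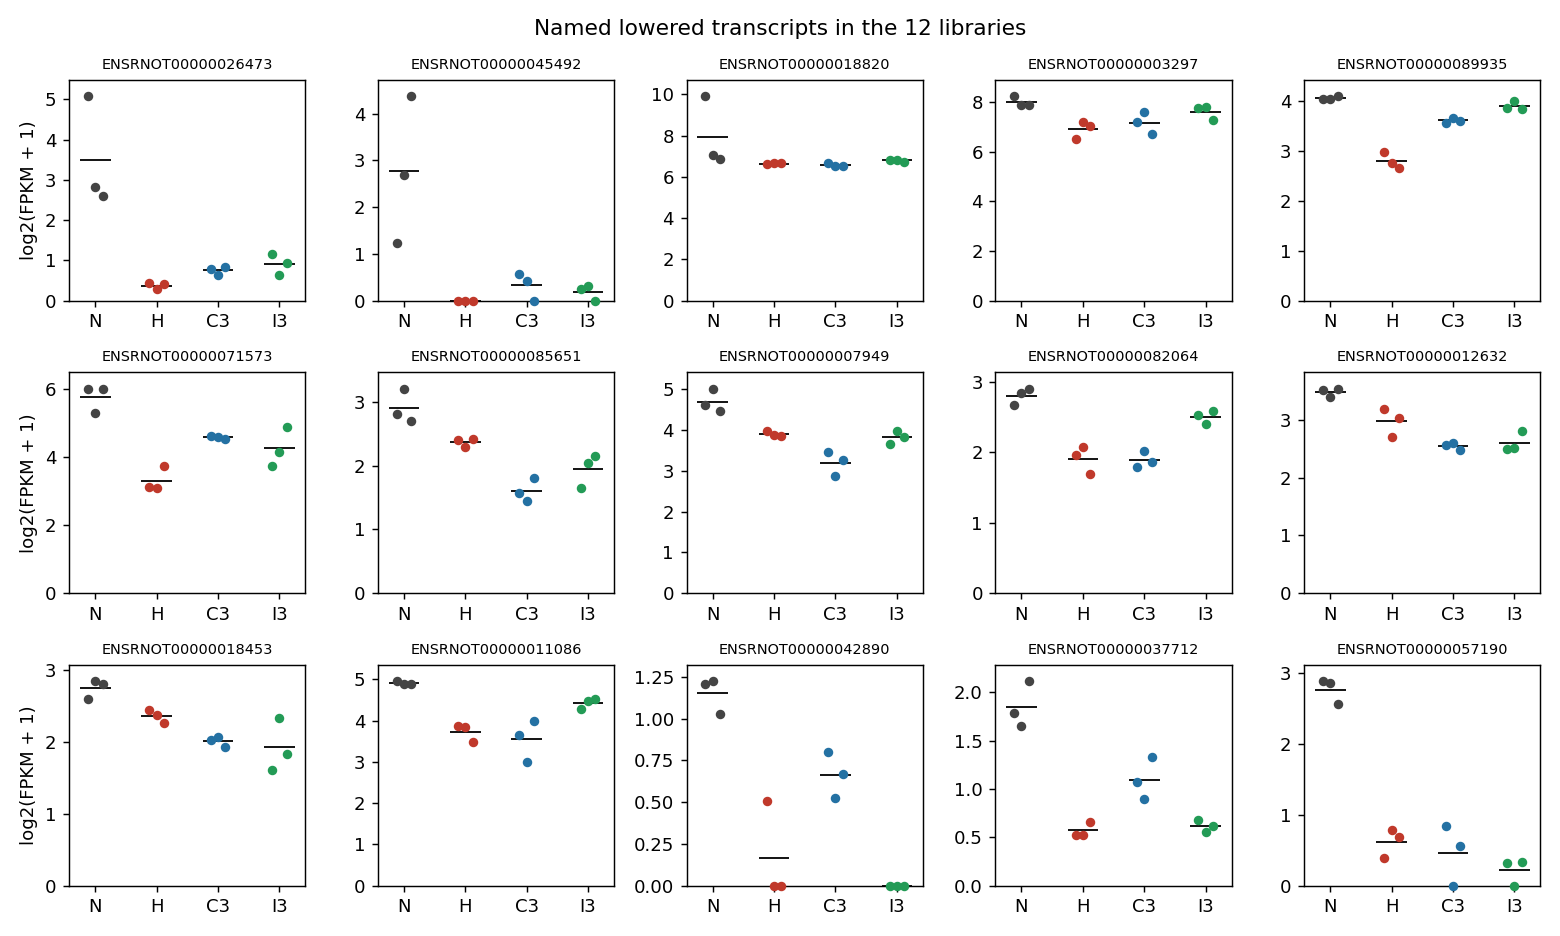
Levels of the members named by a fixed rule, and of the member with the widest separation, as log2(FPKM + 1) (y axis, from 0, scaled for each transcript) in the 3 libraries of each group (x axis). Points are libraries and lines are group means, and ENSRNOT00000089935 has the order H, C3, I3, N with no overlap between groups. For every member the rule sets N above the chamber groups.

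The spread within groups was described by 2 measures. The median SD over the 3 libraries, on the log2 scale, was 0.21 in N, 0.21 in H and 0.23 in I3 for the members, and 0.23, 0.21 and 0.21 for all tested transcripts. In C3 it was 0.23 for the members and 0.17 for all tested transcripts. A range of 1 or more between the 3 libraries of a group was less frequent among members than among all tested transcripts in each group. The shares were 8.37% against 17.1% in N, 13.1% against 16.1% in H, 11.95% against 14.6% in C3 and 13.9% against 17.4% in I3. The overlap condition can remove a transcript whose libraries range widely within a group, so the rule itself bears on these shares. Members also had mean levels below 5 FPKM in N less often (23.1%, against 38.9% of all tested transcripts). For 189 of the 251 members the libraries of each chamber group lay within 1 log2 unit of each other.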

How the data were processed

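Whole-lung RNA libraries were made by random priming with a dUTP second strand, per the labels' protocols. The submitters' processing notes name cutadapt, HISAT2 2.0.5 and StringTie, and the human build hg19, which goes against the rat identifiers. Neither the rat build nor the use of strand is given in the sources used here. The authors deposited 1 transcript table with no stated unit, whose values were taken as FPKM because StringTie is named in the processing notes; they could equally be TPM of a filtered list. Listed values summed to 323894 to 361337 per library. Depth is unknown, so no counting intervals are given. None of the 47357 genes in the reference table carried a rat Ensembl identifier. The planned gene and marker lists were therefore not used.

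Groups came from sample titles. Transcripts at 1 FPKM or more in 3 or more of 12 libraries were kept and log2(FPKM + 1) was used, which understates changes of low transcripts. Limma 3.58.1 in R 4.3.3 fitted 4 group means with a mean-variance trend (8 residual degrees of freedom), with two-sided tests and Benjamini-Hochberg adjustment over all kept transcripts. The fit was also run on simulated, independent normal values, which hold no outlying libraries such as those seen here. No conclusion is drawn from that run. Named members were the 2 with the largest deficit, the 2 highest in N, and the 2 with the smallest p in each direction of each chamber comparison. The members and lists were chosen with earlier results of these data known. Same-numbered libraries deviated together with r of -0.04 to 0.13 over 18 pairs, so they were not taken as pairs.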

Additional observations from a re-analysis of the deposited data

How the results depend on the processing

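The size threshold moved the set from 251 to 403 transcripts at 0.25 and 63 at 1. At 0.25, H, C3 and I3 were lowest in 93, 223 and 87 (23.1%, 55.3% and 21.6%). At 1, they were lowest in 21, 28 and 14 (33.3%, 44.4% and 22.2%). Over all tested transcripts the shares were 30.7%, 38.7% and 30.6%. At 1, the median of I3 minus H was 0.13. Leaving out 1 library in turn gave 246 to 588 transcripts, with H lowest in 56 to 139, C3 in 118 to 301 and I3 in 48 to 148. C3 was lowest most often in each of these, in 48.0% to 59.1% of the set, against 35.6% to 41.5% of all tested transcripts. Members called then numbered 0 to 2 for C3 against H, 1 to 2 for I3 against H, 0 to 1 for I3 against C3 and 0 to 3 over the 3 chamber groups. The lost or added calls came without N replicate 1 or 3, H replicate 1, 2 or 3, or C3 replicate 3. In these and the other alternatives, the share of all tested transcripts called at the adjusted threshold was not recorded. Their counts of calls are thus not set against the whole table. A filter at 5 FPKM gave 1 call for C3 against H (ENSRNOT00000089935, adjusted p = 0.0316 in limma). H was then lowest in 36 of 178 (20.2%, against 30.3% of all tested transcripts) and I3 in 34 (19.1%, against 30.2%). Median ratio scaling used size factors of 1.0185, 1.0442 and 1.0228 in N and of 0.9764 to 1.0197 in the chamber. It left 215 transcripts and 0 calls among them for I3 against H and for the 3 chamber groups. ENSRNOT00000089935 had then left the set, though it was still called against H (adjusted p = 0.00544 in limma). Fitting only the groups compared gave 0 calls for I3 against H. With the replicate number as a block the 3 chamber groups had 0 calls, and I3 against H kept its 1 call (adjusted p = 0.0432 in limma). At an unadjusted p below 0.05 in limma, 31 of 251 members were found between C3 and H, against 0 after adjustment. Between I3 and H the counts were 20 and 1, and between I3 and C3 they were 37 and 0. The F test gave 40 (15.9%, against 6.31% of all tested transcripts) and 1. Over all tested transcripts, 3.19% were higher and 3.67% lower in C3 than in H at that cut. I3 was higher in 2.34% and lower in 2.66% relative to H, and in 3.40% and 3.25% relative to C3. The rule bears on the p-values of members, so these counts are descriptions only. An alternative without both H replicate 3 and I3 replicate 3, chosen after seeing the data, gave 0 calls over the 3 groups. I3 was then lowest in 81 of 317 (25.6%, against 34.6% of all tested transcripts) and C3 in 52.4% (against 35.2%). The medians of C3 minus H and of I3 minus C3 kept their sign in every alternative run for them, and that of I3 minus H lay between -0.05 and 0.13. For all of these, the cause was not tested. Depth is unknown, so the counting error of low values is not known.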
